A study of Mus musculus with 2 samples.

Results

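The mouse genome carries 6 measured microRNA genes inside its 4 Hox clusters: Mir10a, Mir10b, Mir196a-1, Mir196a-2, Mir196b and Mir615. They were chosen by position, as the microRNA genes annotated within the clusters, and made up 6 of the 1973 gene rows in each deposited table. Of the 1894 rows with a position in the annotation used (GENCODE M21), no other lay between the outermost Hox coding sequences of any cluster. The remaining rows could not be placed. Small RNA was profiled in the intestine of B6NCrl mouse embryos at 14.5 days of development, as 2 biological replicates of 1 group, with no genetic change, treatment or second age. Each replicate is labelled as a single intestine of a pup, while the sex is given as pooled male and female. Replicate 1 carries day 17 of the month as its collection date and replicate 2 day 15. The whole organ was sequenced, so muscle, mesenchyme, epithelium, vessels and nerves contributed together. Fewer cells of a type and less RNA per cell therefore cannot be told apart.

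Hox genes encode transcription factors that assign position along the body axis, the gut included. Within a cluster their order on the chromosome follows their order of expression from head to tail, and the microRNA genes sit among them. A microRNA recognises messenger RNAs mainly through its seed, bases 2 to 8, and members of the miR-10 and miR-196 families are known to repress several Hox genes themselves. MiR-615 comes from a hairpin in an intron of a Hox gene and shares no seed with the others.

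The mature sequences show which members share a seed and which of them the counting could keep apart: the 5p arms of the miR-10 and miR-196 genes and both arms of miR-615. All 6 genes matched RefSeq entries (GRCm38.p6). The sequences are written 5′ to 3′ with the seed in capitals.
miR-10a-5p: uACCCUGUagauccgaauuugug
miR-10b-5p: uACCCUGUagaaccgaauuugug
miR-196a-5p: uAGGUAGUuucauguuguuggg
miR-196b-5p: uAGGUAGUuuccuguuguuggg
miR-615-3p: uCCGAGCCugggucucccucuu
miR-615-5p: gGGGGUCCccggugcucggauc

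The arms of miR-10a and miR-10b differed by a single substitution, U12A, counted from 1 at the 5′ end, with the base of miR-10a given first. MiR-196a and miR-196b likewise differed only by A12C, with the base of miR-196a first. In both families the changed base lay outside the seed. Among 1679 mature mouse names in the RefSeq table, 2 carried the miR-10 seed and 2 carried the miR-196 seed, in each case only the sequences shown. The seed of miR-615-3p was found in no other.

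The opposite arms were more diverse. MiR-10a-3p and miR-10b-3p differed at 3 of 22 bases, miR-196a-2-3p and miR-196b-3p at 6, and miR-196a-1-3p and miR-196a-2-3p at 17. The deposited values count reads per hairpin and do not say which arm a read came from.

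Mir196a-1 and Mir196a-2 yield the same miR-196a-5p. The longest stretch shared by their hairpins was 22 bases, which is the mature sequence with no further base on either side. A read of that length or shorter fits both places, and reads with several alignments stood in a row of their own, outside every gene. Reads of every kind with several alignments made up 26.5% of the reads in the table of replicate 1 and 26.6% in that of replicate 2. The counts of Mir196a-1 and Mir196a-2 may therefore be incomplete, to an unknown extent. No other member shared a stretch of 20 bases with a hairpin elsewhere. Mir10a and Mir10b shared at most 15.

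The seed letters of miR-196 also occur in a large family with another seed. The 7 bases stood at bases 3 to 9 of 9 other mature names, among them let-7a, let-7b, let-7c, let-7d, let-7f, let-7g, let-7i and miR-98. In the line for let-7g the capitals mark these bases.
let-7g-5p: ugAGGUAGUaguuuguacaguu
miR-100-5p: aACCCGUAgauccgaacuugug

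MiR-100, shown with its own seed in capitals, shared a run of 11 bases with miR-10a-5p from its seed's last bases into the 3′ part, but not the seed as a whole.

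A near-complete match to miR-196a lies in a Hox transcript. MiR-196 is known to direct cleavage of the Hoxb8 messenger RNA. The annotated 3′ UTR of Hoxb8 held the following 22 bases (GRCm38 chr11:96284888-96284909, plus strand, bases 418 to 439 of the UTR), where capitals mark Watson-Crick pairs with miR-196a-5p and the lower-case base marks a G:U pair.
Hoxb8 site: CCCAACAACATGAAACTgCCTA

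All 22 bases paired, 21 of them as Watson-Crick pairs and 1 as G:U, at position 18 of the site. Among the 20916 genes whose longest 3′ UTR could be scanned without gaps, Hoxb8 alone reached 21 Watson-Crick pairs. The next best gene had 17. With G:U pairs counted as well, 2 genes paired at all 22 bases, Hoxb8 and Rps6ka2, the latter with 12 Watson-Crick and 10 G:U pairs. With miR-196b-5p the same site had 20 Watson-Crick pairs and 1 G:U pair. There 15 genes, Hoxb8 included, had at least as many paired bases with G:U counted. These are matches of letters, and no messenger RNA was measured.

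Within the miR-10 and the miR-196 family, the genes occupied matching places in the clusters that held them. All coordinates are GRCm38 (mm10), from GENCODE release M21. Mir10a (ENSMUSG00000065519.1; chromosome 11, 96317165 to 96317274, plus strand) lay 1.5 kb upstream of the Hoxb4 coding sequence. GENCODE places it outside other genes, and RefSeq places it within the span of Hoxb3. Mir10b (ENSMUSG00000065500.2; chromosome 2, 74726070 to 74726137, plus strand) lay 1.14 kb upstream of the Hoxd4 coding sequence, in an intron of Hoxd3 and Hoxd4. Both miR-10 genes thus stood just before a group 4 gene.

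All 3 miR-196 genes stood upstream of a group 9 gene. Mir196b (ENSMUSG00000065443.1, chromosome 6, 52230081 to 52230165, minus strand) lay between the coding sequences of Hoxa10, 2.34 kb away, and Hoxa9, 3.98 kb away. It overlapped an annotated exon of Hoxa9. Mir196a-2 (ENSMUSG00000065488.1; chromosome 15, 102973350 to 102973434, plus strand) lay 2.28 kb from Hoxc10 and 8.22 kb from Hoxc9, in an intron of a long Hoxc5 transcript. Mir196a-1 (ENSMUSG00000065546.1; chromosome 11, 96265164 to 96265265, plus strand) lay 6.28 kb before Hoxb9 and 68.9 kb after Hoxb13, outside other GENCODE genes. Mir615 (ENSMUSG00000076010.1; chromosome 15, 103014910 to 103015001, plus strand) lay in an intron of Hoxc5.

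**Figure D1:**
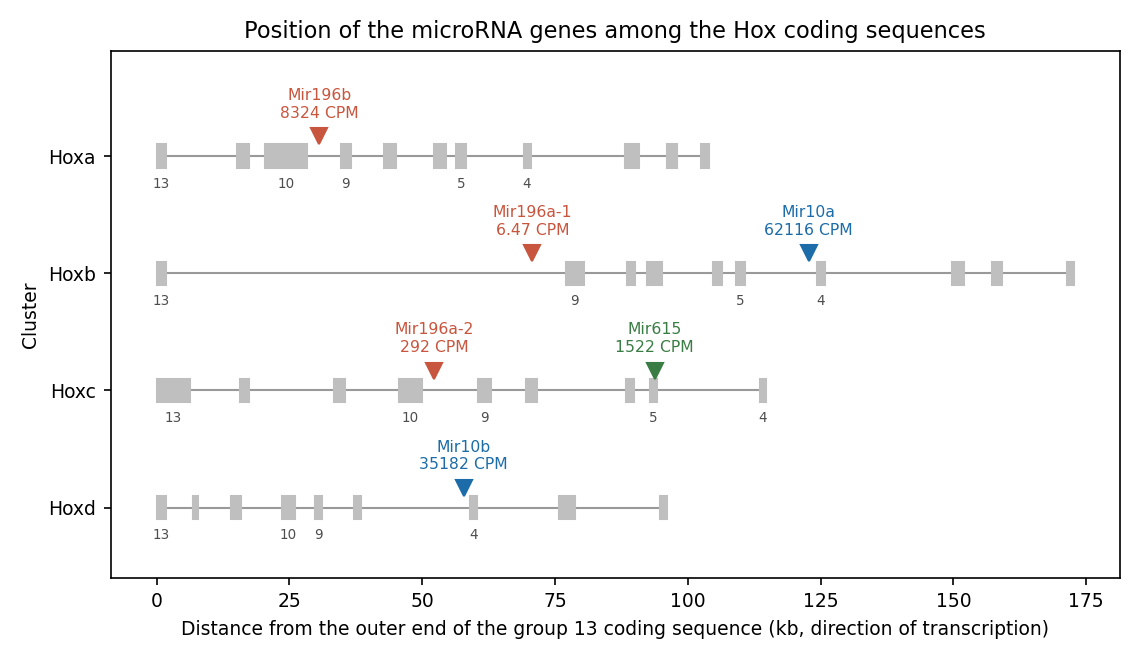
Position of the microRNA genes (triangles, with mean CPM) among the coding sequences of the Hox genes (grey boxes, numbered for groups 4, 5, 9, 10 and 13) in the 4 clusters; the horizontal axis gives distance in kb in the direction of transcription. The miR-10 genes (blue) stand before group 4 genes, the miR-196 genes (red) before group 9 genes, and Mir615 (green) at Hoxc5.

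The levels that follow are CPM, counts on the gene's strand scaled to a library total of 1000000 such counts. The totals were 15090126 in replicate 1 and 3903472 in replicate 2, a depth ratio of 3.87, and a count of 0 would allow up to 0.199 and 0.769 CPM. No scaling by hairpin length was applied, and the lengths of the reads were not examined. Ligation and PCR favour some sequences, so levels of different microRNAs compare counts, not molecules. All 4 listed intestinal epithelial genes and both smooth muscle genes were detected. So were all 3 listed genes of stratified epithelium and Mir122 of liver, so detection alone does not single out the labelled tissue.

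The 6 Hox cluster genes were among the main contributors to the microRNA counts in both libraries. Their sum was 11.6% of the total in replicate 1 (Wilson 95% interval 11.58 to 11.62%) and 9.89% in replicate 2 (9.86 to 9.92%), or 10.7 ± 1.21% (SD, n = 2). The intervals cover counting error only. The total holds no reads with several alignments, so these are shares of the reads assigned to genes. The miR-10 genes made up nearly all of it, with 90.2% of the members' counts in replicate 1 and 91.0% in replicate 2. The miR-196 genes gave 8.43% and 7.55% of the members' counts, and Mir615 gave 1.39% and 1.45%.

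Mir10a, from the Hoxb cluster, was the most abundant member. It had 986289 counts or 65360 CPM in replicate 1 and 229805 counts or 58872 CPM in replicate 2, a mean of 62116 ± 4588 CPM (SD, n = 2). Only Mir143, a microRNA of smooth muscle, stood above it in both libraries, and the gene ranked next below, Mir335, had 50707 and 54949 CPM. The ranges of these 3 genes over the 2 libraries did not overlap. This and the later ranks leave out reads with several alignments, so genes that share their mature sequence with another may rank too low.

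Mir10b, its paralogue in the Hoxd cluster, followed within the set. It had 592229 counts or 39246 CPM in replicate 1 and 121465 counts or 31117 CPM in replicate 2 (35182 ± 5748 CPM). Its rank among all genes was 4 in replicate 1 and 6 in replicate 2. The genes next to it by mean level, Mirlet7g (35988 and 39108 CPM) and Mir26b (32023 and 32663 CPM), lay within its range, so the order of these 3 genes is not resolved.

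Mir10a exceeded Mir10b 1.67-fold in replicate 1 (exact 95% counting interval 1.66 to 1.67) and 1.89-fold in replicate 2 (1.88 to 1.91). The mean log2 ratio of 0.83 was larger than its gap of 0.18 between the libraries. Together both genes made up 10.5% of the counts in replicate 1 and 9.00% in replicate 2. Their mature forms written out above share a seed and differ by a single base, but their opposite arms carry other seeds. The counts do not say which arm a read came from, so the share of the common seed was not measured.

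Mir196b, from the Hoxa cluster, had the highest count of the miR-196 genes. It had 142490 counts or 9443 CPM in replicate 1 and 28123 counts or 7205 CPM in replicate 2 (8324 ± 1582 CPM), at ranks 22 and 31. The miR-10 sum exceeded the miR-196 sum 10.7-fold in replicate 1 and 12.1-fold in replicate 2, a mean log2 ratio of 3.51 with a gap of 0.17. Mir10b exceeded Mir196b 4.16-fold and 4.32-fold. Since reads of miR-196a that fit both loci stand in no gene row, the miR-196 sum may be too low and the ratio of the sums too high.

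The other miR-196 genes were far lower as counted. Mir196a-2 in the Hoxc cluster had 4977 counts or 329.8 CPM in replicate 1 and 995 counts or 254.9 CPM in replicate 2 (292 ± 53.0 CPM). Mir196a-1 in the Hoxb cluster had 114 counts or 7.55 CPM and 21 counts or 5.38 CPM (6.47 ± 1.54 CPM), the lowest of the 6. Mir196b exceeded Mir196a-2 28.6-fold and 28.3-fold in replicates 1 and 2, and Mir196a-2 exceeded Mir196a-1 43.7-fold and 47.4-fold. Reads that fit both miR-196a loci are missing from these counts. Neither their levels nor these ratios measure how much miR-196a the tissue held.

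Mir615, from the Hoxc cluster, was a gene of moderate level. It had 24252 counts or 1607 CPM in replicate 1 and 5605 counts or 1436 CPM in replicate 2 (1522 ± 121 CPM), at ranks 84 and 88. Mir10a exceeded it 40.7-fold and 41.0-fold, a log2 ratio of 5.35 that differed between the libraries by 0.01. The order Mir10a, Mir10b, Mir196b, Mir615, Mir196a-2, Mir196a-1 held in both libraries as counted, and no neighbours in it overlapped in their 2 values. The places of Mir196a-2 and Mir196a-1 rest on counts that may be incomplete and are not resolved.

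**Figure D2:**
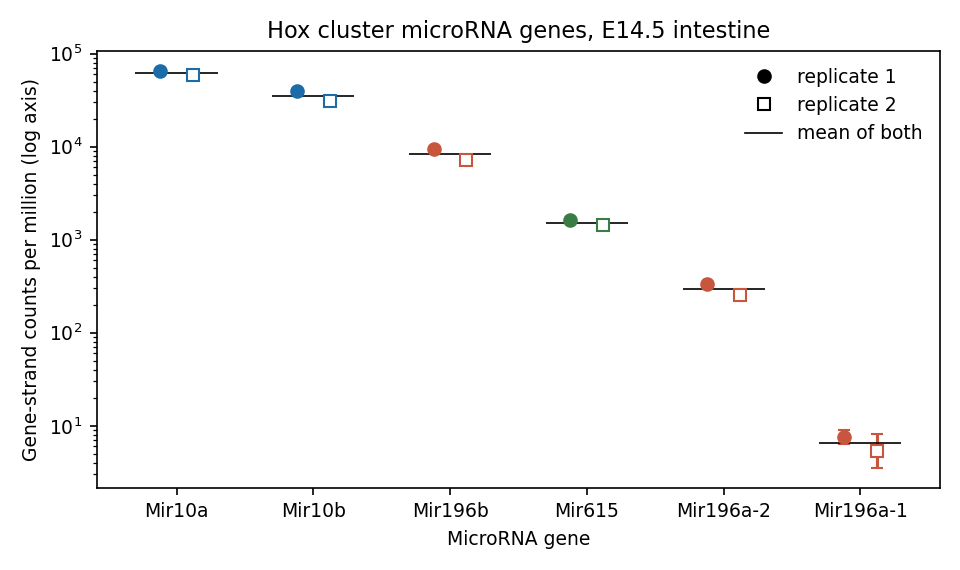
Level of each member in replicate 1 (filled circles) and replicate 2 (open squares) in CPM on a log axis; whiskers are Wilson 95% counting intervals, mostly smaller than the symbols, and bars mark the mean. The genes run from 62116 CPM for Mir10a to 6.47 CPM for Mir196a-1, and each open square lies below its circle.

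The Hoxb cluster held both the highest and the lowest member. In the Hoxb cluster Mir10a and Mir196a-1 lie on the same strand, and the first exceeded the second 8652-fold in replicate 1 and 10943-fold in replicate 2 as counted. In the Hoxc cluster Mir615 exceeded Mir196a-2 4.87-fold and 5.63-fold. Both ratios include a miR-196a gene whose count may be incomplete. By cluster, Hoxb gave 56.4% of the members' counts in replicate 1 and 59.5% in replicate 2, Hoxd 33.8% and 31.5%, Hoxa 8.14% and 7.29%, and Hoxc 1.67% and 1.71%.

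**Figure D3:**
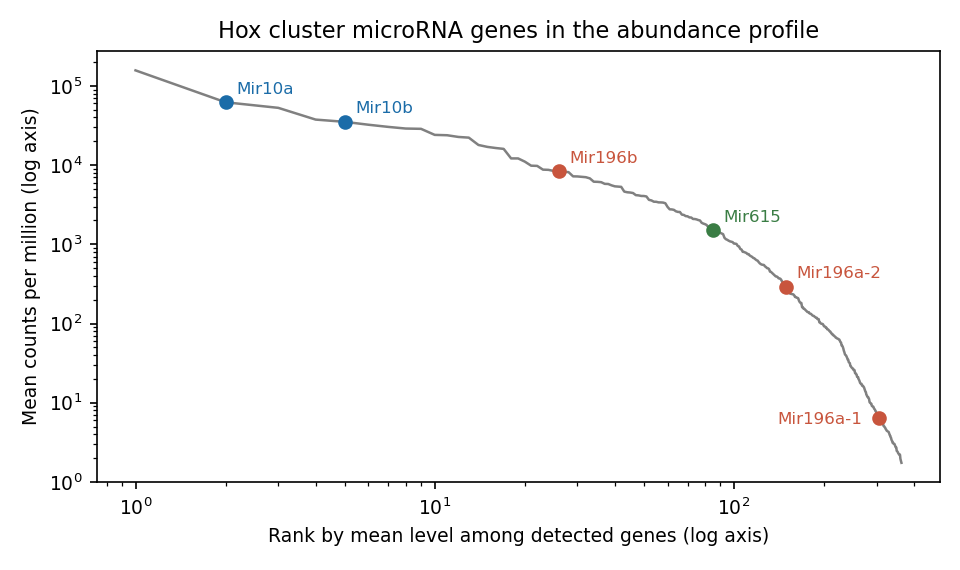
Mean level of all 363 detected genes, those with at least 10 counts in both libraries, against their rank, both on log axes, with the 6 members marked. Mir10a and Mir10b stand at ranks 2 and 5, Mir196b at 26, Mir615 at 85, Mir196a-2 at 149 and Mir196a-1 at 305. The counts of Mir196a-2 and Mir196a-1 may be incomplete.

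Every member had a lower value in replicate 2 than in replicate 1. For each of the 363 detected genes a two-sided exact binomial test asked whether the counts split as the library totals do, and p was adjusted by Benjamini-Hochberg over all of them (threshold 0.05). The test compares these 2 libraries and no conditions. All 6 members passed the minimum of 10 counts, and 5 were called lower in replicate 2. Of all detected genes, 43.8% were called, 14.0% as lower (51 genes) and 29.8% as higher (108 genes). All 6 members and 38.0% of detected genes lay below 0, with or without a call. The median log2 difference, replicate 2 over replicate 1, was -0.35 over the members and 0.06 over all detected genes. With TMM scaling 84 detected genes were called lower and 58 higher, with median-of-ratios scaling 90 and 54, and with Mir143 left out of the total 68 and 87. The members called lower numbered 5 under each of these settings.

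The called differences were of 2 sizes. Mir196b (log2 -0.39, exact 95% counting interval -0.41 to -0.37), Mir196a-2 (-0.37, -0.47 to -0.27) and Mir10b (-0.33, -0.34 to -0.33) were lower by 1.26-fold to 1.31-fold. Mir10a (-0.15, -0.16 to -0.14) and Mir615 (-0.16, -0.20 to -0.12) were lower by 1.11-fold and 1.12-fold. The intervals of the first 3 did not overlap those of the last 2. By the exact binomial test the adjusted p was 1.46e-13 for Mir196a-2 and 8.51e-14 for Mir615, and for Mir10a, Mir10b and Mir196b it was too small for the software to represent. Mir196a-1 did not pass (-0.49, -1.24 to 0.19, adjusted p = 0.271 by the exact test), and at 114 and 21 counts a difference of this size was not detectable.

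Mir196b and Mir10b stood at the low end of the abundant genes. The 95th percentile of the absolute log2 difference was 0.73 over all detected genes and 0.41 over the 102 genes with a mean of at least 1000 CPM, and every member lay within the former and every member but Mir196a-1 within the latter. An at least 1.2-fold lower value in replicate 2 was seen in 4 of the 6 members and 8.54% of detected genes, with no test. Of the 102 abundant genes, Mir196b and then Mir10b had the lowest log2 differences, followed by Mir369 (-0.27) and Mir379 (-0.21) of the imprinted Dlk1-Dio3 region. Mir615 stood at place 10 and Mir10a at place 15 in that order.

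The genes of at least 1000 CPM closest to Mir10a in this difference were Mir101b (-0.16), Mir181a-1 (-0.15) and Mir1983 (-0.16). For Mir10b they were Mir196b, Mir369 and Mir379, and for Mir196b they were Mir10b, Mir369 and Mir379. This likeness rests on 2 libraries and is a description.

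**Figure D4:**
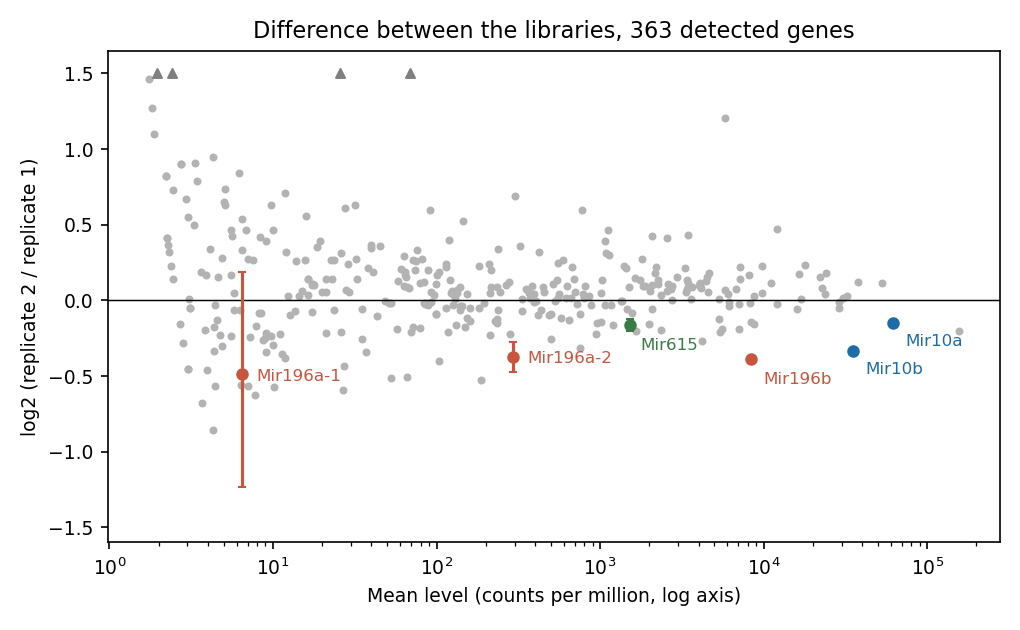
Log2 difference between the libraries (replicate 2 over replicate 1) against mean CPM on a log axis for the 363 detected genes (grey), with the 6 members coloured by family and exact 95% counting intervals. All 6 members lie below 0; the 4 triangles at the upper edge are genes beyond 1.5, all higher in replicate 2.

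Relatives of miR-10 by sequence, without its seed, had log2 differences from -0.16 to 0.01. The miR-99 and miR-100 genes, whose mature forms share the centre of miR-10 and which lie outside the Hox clusters, gave 5.56% of the counts in replicate 1 and 5.37% in replicate 2. Mir100 was lower in replicate 2 (log2 -0.16, with 9248 and 8286 CPM), Mir99a slightly so (-0.05), and Mir99b was not called (0.01, adjusted p = 0.423 by the exact test). Mir99b turned lower, and was called, with TMM scaling (-0.08), median-of-ratios scaling (-0.09) and Mir143 out of the total (-0.03). The value of Mir100 was close to the -0.15 of Mir10a, and those of Mir99a and Mir99b were nearer to 0 than any member's.

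Markers of other cell types differed between the same libraries, where 29.8% of detected genes were called higher. All 4 intestinal epithelial genes (Mir192, Mir194-1, Mir194-2 and Mir215) were called higher in replicate 2, with a summed share of 0.898% in replicate 1 and 1.14% in replicate 2. So were all 5 miR-200 genes of epithelium, with 3.50% and 4.29%. Of the smooth muscle genes Mir143 was called lower (log2 -0.20) and Mir145a was not called (0.01; with TMM and median-of-ratios scaling it was called lower, at -0.07 and -0.08), and their sum was 17.2% and 15.0%. No gene of these 3 lists was at 0 in either library.

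Of the 6 pancreatic and endocrine genes 5 were detected and all 5 were called higher. The list's share was 0.363% in replicate 1 and 0.828% in replicate 2, most of it from Mir375 (3497 and 8059 CPM). Mir802, known from liver and pancreas, had 24 counts in replicate 1 and 533 in replicate 2 (1.59 and 136.5 CPM). Of the mesenchymal genes 1 of 4, Mir214, was called higher and 1, Mir199b, lower. The sum of this list was 0.971% and 1.12%, most of it from Mir214 (9071 and 10600 CPM). Of the erythroid genes 1 of 3 was called higher (0.0258% and 0.0409%), Mir451a. The counts for intestinal epithelium, miR-200, pancreas and endocrine, mesenchyme and erythroid lists were the same with TMM and median-of-ratios scaling. Other calls depended on the scaling. Endothelial Mir126a (2.35% and 2.42%) was called higher at log2 0.04 and called lower at -0.04 with TMM and -0.05 with median-of-ratios scaling. Of the leukocyte genes 2 of 3 measured were called higher (0.0448% and 0.0557%), and 1 with either scaling. Of the neural genes 3 of 4 detected were called higher (0.214% and 0.244%), 2 with TMM and 1 with median-of-ratios scaling. Mir122 of liver was called higher (0.00398% and 0.00510%), and with neither scaling. All 3 genes of stratified epithelium were called higher (0.558% and 0.620%), but Mir203 turned from 0.08 to -0.01 with median-of-ratios scaling and was called with neither scaling. Of the 8 measured striated muscle genes 3 were detected, and none of these was called (0.00332% and 0.00318%). At 0 in both libraries were 3 of 8 measured neural genes, Mir9-2, Mir124a-2 and Mir124a-3, and 1 of 8 measured striated muscle genes, Mir133a-1. Reads with several alignments stand in no gene row, so a count of 0 does not show that a microRNA was absent. The part of tissue composition, collection day and depth in the members' difference was not tested, and with 1 library per collection day, day and animal cannot be told apart.

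The opposite strand held almost no counts at the members. Mir10a had 6 opposite-strand counts in replicate 1 beside 986289 on its own strand, 0.000608%, and 0 in replicate 2. The other 5 genes had none in either library. For Mir196b this allows an opposite-strand share of up to 0.00211% in replicate 1 and 0.0107% in replicate 2, taking 3 counts as the limit. Over all genes the opposite strand held 2.89% of the gene counts in replicate 1 and 3.10% in replicate 2.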

How the data were processed

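The deposited tables, 1 per library, hold whole-number read counts per gene in 3 columns. They hold both strands together, the strand of the gene, and its opposite. This reading rests on the values, since the first column equals the sum of the others in every gene row. The authors used the mm10 assembly and annotation M4, per the descriptions deposited with the tables. The aligner, trimming and counting program are not given in the sources used here. Unaligned reads (12.4% and 13.8%) and reads on no gene (2.20% and 2.10%) did not enter the total of gene-strand counts. Reads with several alignments (26.5% and 26.6%) were left out likewise. Reads on no gene and reads with several alignments entered only the alternative total of all aligned reads. No molecular identifiers are recorded, so PCR copies count as reads.

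Gene-strand counts over the sum of all 1973 gene rows gave CPM. Of these rows 1894 matched GENCODE M21, without versions. Mir10b and Mir196a-2 carry another version there, so their counted intervals may differ. The members and lists were chosen with earlier results of these data known. Named genes were all members, their neighbours in level, the 3 abundant genes closest in log2 difference to Mir10a, Mir10b and Mir196b, sequence relatives and list members. The group has no contrast, so no edgeR test was fitted. The p-values measure counting error between these samples. The binomial comparison (scipy 1.17.1) was run on simulated counts with counting error alone, the setting it assumes. That run does not show how it behaves with further variation between samples. TMM factors came from edgeR 4.0.16 and median-of-ratios factors from DESeq2 1.42.0, as alternatives, beside other totals, strands, filters and thinned depth. Seed matches of miR-10 in 3′ UTRs are not reported here.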

Additional observations from a re-analysis of the deposited data

Results flagged for a closer look

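Mir10a had 6 counts on its opposite strand in replicate 1, above the 3 counts that a count of 0 would allow, in a column the levels do not use. Replicate 2, the shallower library, had 0.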

How the results depend on the processing

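The summed share of the 6 genes, 10.7% with the total of gene-strand counts, was 12.8% with Mir143 left out of that total and 6.98% with all aligned reads as the total, by construction of those totals. It ranged from 9.89% to 11.6% with either replicate left out. The log2 ratio of Mir10a over Mir10b then ranged from 0.74 to 0.92, miR-10 over miR-196 from 3.42 to 3.59, Mir196b over Mir196a-2 from 4.82 to 4.84 and Mir10a over Mir615 from 5.35 to 5.36. With replicate 1 thinned to the total of replicate 2, Mir196b over Mir196a-2 was 4.81 against 4.83, the only ratio to move by more than its small SD. Without Mir196a-1 and Mir196a-2, which share sequence, miR-10 over miR-196 was 3.56. The number of members called lower in replicate 2 was 5 under 8 of the 9 alternatives and 4 of 4 without those genes. Under each alternative that gave a value, 7 for Mir196a-1, 8 for Mir196a-2 and 9 for the others, the log2 differences kept their sign. They ranged, the reported value included, from -0.24 to -0.15 for Mir10a, -0.43 to -0.33 for Mir10b, -0.48 to -0.39 for Mir196b, -0.46 to -0.37 for Mir196a-2, -0.58 to -0.31 for Mir196a-1 and -0.26 to -0.16 for Mir615. Over all detected genes the split of calls depended on scaling: 51 lower and 108 higher became 84 and 58 with TMM and 90 and 54 with median-of-ratios scaling, and 68 and 87 without Mir143 in the total. List calls under scaling were added after seeing the data. No paired analysis was possible because there is a single group. Mir196a-1 was the only member whose counting interval included 0, and depth limits what can be said of it.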

Other observations

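Matches to the seeds of miR-196 and miR-615-3p were counted in the longest annotated 3′ UTR of each protein-coding gene of GENCODE M21, on the transcript strand, as letters only. ACTACCT, the match to bases 2 to 8 of miR-196, was present in 9 of 39 Hox genes (23.1%) and in 1283 of all 21028 genes (6.10%). The 8-base form with a final A, ACTACCTA, which contains the shorter match, was present in 5 Hox genes (12.8%), Hoxa5, Hoxa7, Hoxb6, Hoxb7 and Hoxc8, against 1.27% of all genes. GGCTCGG, the match to miR-615-3p, was present in 1 Hox gene, Hoxb4, and in 2.30% of all genes, and its 8-base form GGCTCGGA in 0 of 39 Hox genes and 0.533% of all genes. The median length of these UTRs was 966 bases for Hox genes and 960.5 for all genes. The Hoxb8 site does not hold ACTACCT, since its G:U pair falls there. No test was run and no messenger RNA was measured.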
